A study of Mus musculus with 8 samples.

Results

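The mitochondrial ribosomal proteins were followed as every entry of the hippocampal count table whose symbol was Mrpl or Mrps, digits and an optional letter, with entries marked as duplicates left out. The rule found 76 of the 24078 entries, 47 Mrpl genes named for the large subunit and 29 Mrps genes named for the small subunit. The rule uses names only and no expression value, although it was written with earlier results of these data known. All 76 passed the filter on low counts and were tested, all are annotated as protein-coding, and they lie on 17 chromosomes.

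Mitochondria carry their own ribosome, which translates the few oxidative phosphorylation subunits encoded by mitochondrial DNA. Its ribosomal RNAs come from mitochondrial DNA, whereas its proteins are encoded in the nucleus, translated in the cytosol and imported. Some of these proteins have counterparts in bacterial ribosomes and others occur only in mitochondria. The small subunit holds the decoding centre, and the large subunit holds the peptidyl transferase centre, the exit tunnel and the stalk that recruits translation factors.

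Hippocampal total RNA, depleted of ribosomal RNA, was sequenced from 4 mice homozygous for a Wfs1 mutation and 4 wild-type mice, 1 library for each animal. The strain label of all 8 animals was Wfs1tm1Koks, a mutant allele of Wfs1, which encodes the endoplasmic reticulum protein wolframin, and the labels gave no age, sex, litter or batch. Homozygous animals are numbered 15 to 18 and wild-type animals 7 to 10, and values are given in that order. Library totals were 3250949 to 5077114 counts in homozygous and 3296309 to 6747411 in wild-type animals, and the 76 members together took 4230 to 6431 counts in homozygous and 4328 to 8834 in wild-type animals. Levels are CPM, counts divided by the library's total after scaling with TMM factors.

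Wfs1 itself averaged 14.8 ± 2.61 CPM in homozygous and 52.0 ± 7.49 CPM in wild-type hippocampi (SD, n = 4 each), with no overlap between the genotypes. Markers of hippocampal neurons were present in every library, with summed levels of 1686 to 1965 CPM in homozygous and 2167 to 2859 CPM in wild-type animals. By the test described below, 4 of the 8 were called lower and 2 higher, beside 20.4% and 20.7% of all genes tested, and 1 was lower and 2 higher after removal of the trend of fold change with CPM per kilobase. Summed oligodendrocyte markers were 936 to 1160.2 CPM in homozygous and 1371 to 2195 CPM in wild-type animals, and 5 of the 6 were called lower, or 0 of the 6 after removal of that trend (0 of the 6 higher in either fit by edgeR). Summed choroid plexus markers varied from 105 to 836 CPM in homozygous and from 199 to 1202 CPM in wild-type animals. Of these 6 markers only Clic6 was called, as lower (log2 fold change -0.71, edgeR adjusted p = 0.0294). It was also called lower after removal of the trend with CPM per kilobase. The summed markers of astrocytes, microglia, endothelium, striatum and blood overlapped between the genotypes. Single markers of each were still called. Of 5 astrocyte markers 2 were lower, or 0 after removal of the trend with CPM per kilobase. Of the 3 blood markers found, 2 were lower and 1 higher. Hbb-b1 and Hbb-b2, with the same values in every library, had a log2 fold change of -1.95 (edgeR adjusted p = 0.00324). Alas2 was at 0.91 (edgeR adjusted p = 0.0147). Of 5 markers each, microglia had 1 lower, endothelium 1 lower and 2 higher, and striatum 1 higher. No marker found in the table was at 0, and the part of these cell types in the results below was not tested. In whole tissue, fewer cells of a type and less RNA per cell cannot be told apart.

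Promoter sequence is shown for 6 members, since promoters of mitochondrial protein genes are known to carry sites for ETS factors such as GABP and for NRF-1. Each sequence is the 250 bases before the gene's start in RefSeq on build GRCm38.p6, 5′ to 3′ on the gene's own strand. The 6 members were chosen by hand, and their matches do not stand for all members with the same call, which are counted below. By the test described below, Mrpl12, Mrps21, Mrps18a and Mrps33 were lower in homozygous animals, Mrpl17 was higher and Mrpl11 passed in neither direction. Their windows are chr11:120484387-120484636 (plus strand) for Mrpl12, chr3:95871515-95871764 (minus strand) for Mrps21, chr17:46110754-46111003 (plus strand) for Mrps18a, chr6:39810937-39811186 (minus strand) for Mrps33, chr7:105811088-105811337 (minus strand) for Mrpl17 and chr19:4962056-4962305 (plus strand) for Mrpl11. Capitals mark matches on either strand to the NRF-1 motif (GCGCA, any base, GCGC) or to the ETS core CCGGAA.
Mrpl12: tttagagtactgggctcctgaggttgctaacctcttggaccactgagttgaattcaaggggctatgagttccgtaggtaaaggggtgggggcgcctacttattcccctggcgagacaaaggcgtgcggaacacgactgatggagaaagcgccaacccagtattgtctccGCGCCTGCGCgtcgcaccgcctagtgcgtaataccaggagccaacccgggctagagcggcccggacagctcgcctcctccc
Mrps21: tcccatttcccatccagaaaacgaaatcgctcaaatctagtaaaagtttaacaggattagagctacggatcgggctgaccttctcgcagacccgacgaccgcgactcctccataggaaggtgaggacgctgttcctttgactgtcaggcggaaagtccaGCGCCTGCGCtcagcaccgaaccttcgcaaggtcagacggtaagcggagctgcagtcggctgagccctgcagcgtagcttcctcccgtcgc
Mrps18a: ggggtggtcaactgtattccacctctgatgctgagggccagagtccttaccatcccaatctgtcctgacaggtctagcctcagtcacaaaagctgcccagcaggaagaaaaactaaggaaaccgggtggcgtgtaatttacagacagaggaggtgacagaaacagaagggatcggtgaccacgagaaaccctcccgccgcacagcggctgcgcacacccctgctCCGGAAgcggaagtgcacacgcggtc
Mrps33: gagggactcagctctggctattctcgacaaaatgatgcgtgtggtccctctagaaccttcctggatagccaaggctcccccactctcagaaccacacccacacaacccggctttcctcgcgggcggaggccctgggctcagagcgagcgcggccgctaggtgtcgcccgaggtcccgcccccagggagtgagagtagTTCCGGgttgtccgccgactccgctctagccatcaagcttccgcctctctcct
Mrpl17: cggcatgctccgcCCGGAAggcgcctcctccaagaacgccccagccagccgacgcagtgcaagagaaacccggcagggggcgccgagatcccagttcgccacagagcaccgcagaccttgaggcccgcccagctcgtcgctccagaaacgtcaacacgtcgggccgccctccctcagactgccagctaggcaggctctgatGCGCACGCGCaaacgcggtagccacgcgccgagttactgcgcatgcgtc
Mrpl11: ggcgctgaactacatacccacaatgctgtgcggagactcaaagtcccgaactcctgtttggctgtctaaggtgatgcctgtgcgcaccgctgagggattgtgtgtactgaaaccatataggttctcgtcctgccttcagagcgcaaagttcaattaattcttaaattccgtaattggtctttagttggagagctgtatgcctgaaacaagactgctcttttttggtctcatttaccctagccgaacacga
The capitals are an NRF-1 match in Mrpl12 and Mrps21, an ETS core in Mrps18a and Mrps33, and both in Mrpl17. Mrpl11 holds neither in this window. All 6 windows run past the gene's start in GENCODE, and that of Mrpl11, whose start there is chr19:4962147, runs furthest. The 250 bases before the GENCODE starts were therefore searched only in part.

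Transcripts of the mitochondrial ribosome were lower in homozygous than in wild-type hippocampi for 30 of the 76 members and higher for 4, by the quasi-likelihood F-test of edgeR, with p-values adjusted by Benjamini and Hochberg's method over all 20478 genes tested and a threshold of 0.05. Of the members, 39.5% were lower and 5.26% higher, against 20.4% and 20.7% of all genes tested. The other 42 members passed the test in neither direction, and 31 of them had a negative and 11 a positive log2 fold change. The median log2 fold change of the members was -0.45, a fold of 0.732, beside 0.05 for all genes tested, and single members ran from -1.57 to 1.96. Homozygous animals lay entirely below wild-type animals for 23 members and entirely above for 4, beside 18.8% of all genes tested in each direction. At the threshold, Mrps35 had an adjusted p of 0.0486 and Mrps36 of 0.0596.

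**Figure D1:**
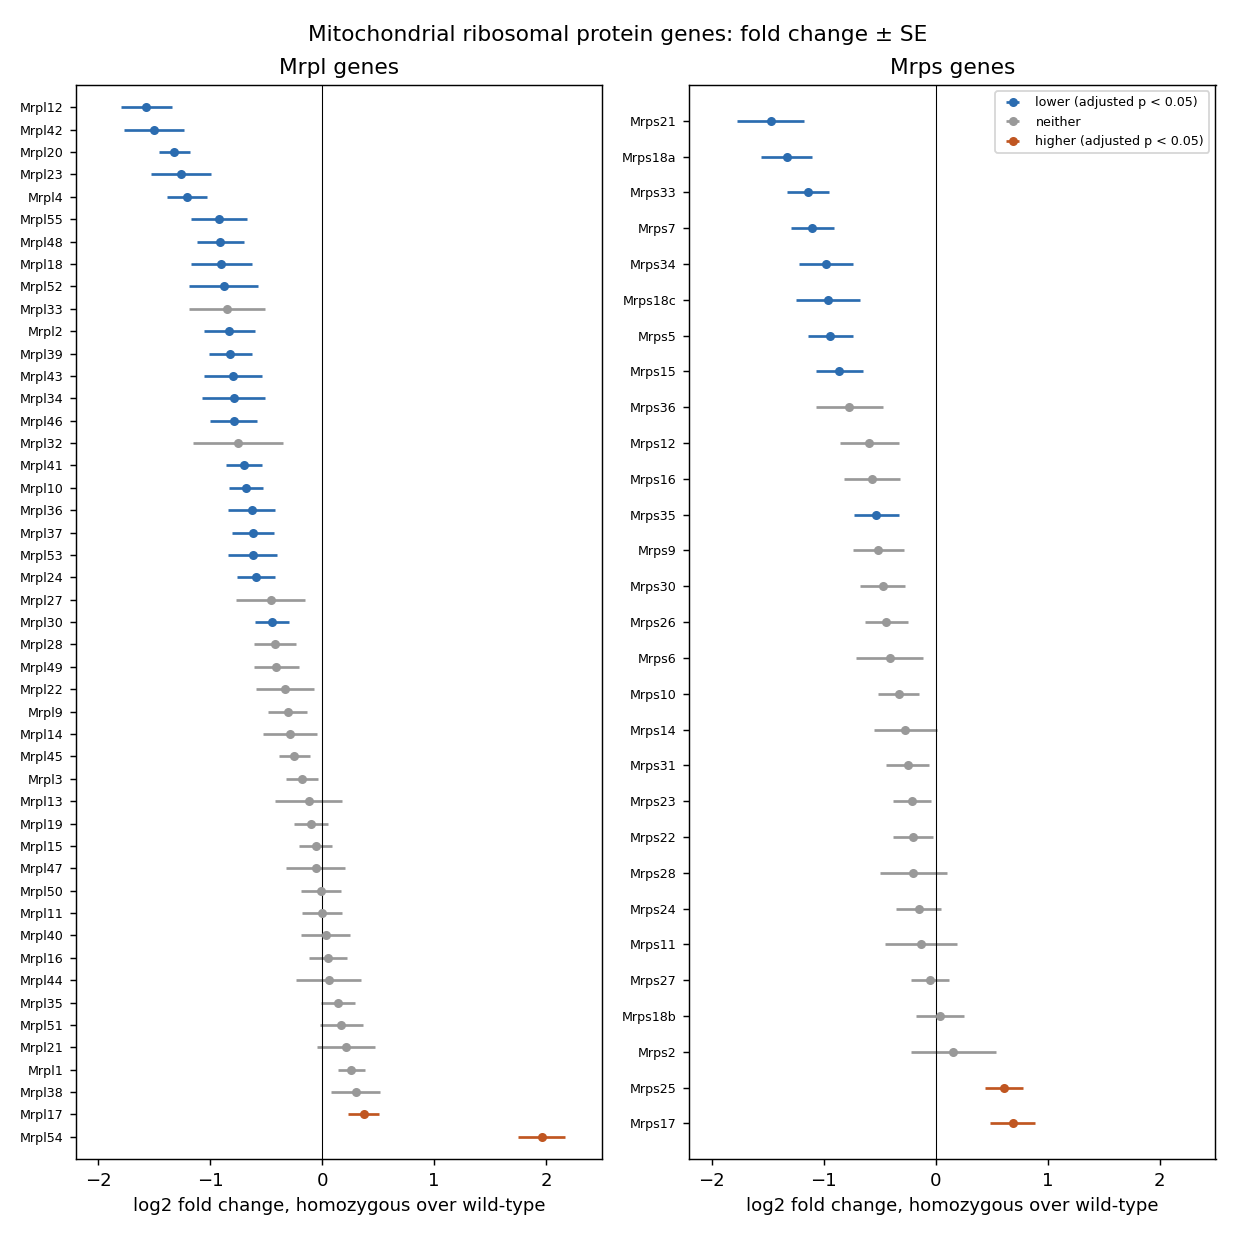
Log2 fold change, homozygous over wild-type, of each of the 76 members, with Mrpl genes on the left and Mrps genes on the right. Points are estimates and bars are SE, and colours mark members called lower, higher or neither. Most points lie left of 0, from -1.57 for Mrpl12, and Mrpl54 stands apart at 1.96.

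Some members changed by more than others. A drop of at least 2-fold in homozygous animals was called for 9 members, 5 Mrpl and 4 Mrps genes. Whichever of the 8 libraries was left out, 20 members were called lower. Each of these fits alone called 16.3% to 20.1% of all genes lower. The shares of all genes lower in all 8 fits, or lower by at least 2-fold, were not counted. The share of members called lower also stood beside that of genes of like abundance. Among 15005 protein-coding genes within the members' range of 3.6 to 80.2 CPM, 17.2% were called lower and 21.2% higher, with a median log2 fold change of 0.07.

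Among the large-subunit genes, Mrpl12, Mrpl42, Mrpl20, Mrpl23 and Mrpl4 fell by more than 2-fold. Mrpl12 encodes the stalk protein that recruits translation factors and also binds the mitochondrial RNA polymerase. Its levels were 14.7, 16, 18.2 and 15.6 CPM in homozygous and 35.1, 46.5, 36.7 and 72.2 CPM in wild-type hippocampi. The homozygous animals lay close together, and the wild-type animals were all higher and more spread, with animal 10 highest. The log2 fold change was -1.57 (SE 0.23, edgeR adjusted p = 0.000494), and -1.69 to -1.30 when 1 library was left out. The gene lies at chr11:120484613-120489065 on the plus strand.

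Mrpl20 (chr4:155802878-155809975, plus strand) is the counterpart of a bacterial protein known for its role in assembly of the large subunit. It had 15.4, 18.3, 19.4 and 13.8 CPM in homozygous and 41.6, 43.7, 44.6 and 36.8 CPM in wild-type animals. The spread within each genotype was small beside the gap between them, and the log2 fold change was -1.32 (SE 0.14, edgeR adjusted p = 9.22e-05). In wild-type animals Mrpl20 had the highest level per kilobase of exon among the members, 18 CPM per kb in homozygous and 45.0 CPM per kb in wild-type hippocampi.

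Mrpl4 and Mrpl23 encode proteins that line the peptide exit tunnel or its opening. Mrpl4 (chr9:21002738-21008839, plus strand) had 7.07, 7.55, 7.23 and 4.99 CPM in homozygous and 14.6, 15.6, 17.8 and 14.3 CPM in wild-type animals, a log2 fold change of -1.21 (SE 0.18, edgeR adjusted p = 0.000538). Mrpl23 (chr7:142532686-142540747, plus strand) had 4.59, 4.94, 4.05 and 3.52 CPM in homozygous and 10.7, 12.9, 5.94 and 12.8 CPM in wild-type animals, a log2 fold change of -1.26 (SE 0.27, edgeR adjusted p = 0.00432). Both were lower in all homozygous animals than in any wild-type animal, although wild-type animal 9 came close to them for Mrpl23. Mrpl42, a protein that occurs only in mitochondrial ribosomes (chr10:95480805-95501940, minus strand), had 2.83, 4.36, 6.07 and 5.58 CPM in homozygous and 10.7, 18, 13.8 and 10.1 CPM in wild-type animals. The genotypes did not overlap, and its log2 fold change was -1.50 (SE 0.27, edgeR adjusted p = 0.00169).

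The other 16 large-subunit genes called lower had log2 fold changes of -0.92 to -0.45. They were Mrpl55, Mrpl48, Mrpl18, Mrpl52, Mrpl2, Mrpl39, Mrpl43, Mrpl46, Mrpl34, Mrpl41, Mrpl10, Mrpl36, Mrpl53, Mrpl37, Mrpl24 and Mrpl30. Mrpl10, which anchors the Mrpl12 stalk to the ribosome, fell by 0.68 on the log2 scale (edgeR adjusted p = 0.00539). Mrpl41, second in level per kilobase among wild-type animals, had 16.4, 18.9, 22.0 and 22.3 CPM in homozygous and 26.4, 32.2, 30.2 and 39.6 CPM in wild-type animals. All homozygous values were below all wild-type values, with a log2 fold change of -0.70 (SE 0.16, edgeR adjusted p = 0.0063), but after removal of a trend of fold change with CPM per kilobase it was -0.33 (adjusted p = 0.14). Mrpl18 had 5.83, 6.39, 7.52 and 8.51 CPM in homozygous and 10.9, 21.7, 10.3 and 10.9 CPM in wild-type animals. The genotypes did not overlap, but wild-type animal 8 stood far above the other wild-type animals. Its log2 fold change of -0.90 (SE 0.27, edgeR adjusted p = 0.0199) was -0.80 (adjusted p = 0.0623) without homozygous animal 15. Mrpl34 averaged 5.51 ± 2.56 CPM in homozygous and 9.34 ± 2.04 CPM in wild-type animals, and Mrpl52 averaged 5.35 ± 2.53 CPM in homozygous and 9.8 ± 2.72 CPM in wild-type animals. Both calls (edgeR adjusted p = 0.0447 and 0.0428) were lost without any of wild-type 7, 9 or 10 and homozygous 15, 16 or 18, and those of Mrpl43, Mrpl36, Mrpl53, Mrpl37 and Mrpl30 were also lost without some single library.

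Mrpl54 went the other way and was the member with the largest change. It encodes a protein of the large subunit that has no bacterial counterpart. Its levels were 64.6, 65.9, 37.0 and 70.7 CPM in homozygous and 15.6, 17, 12 and 17 CPM in wild-type hippocampi. Even the lowest homozygous animal, 17, had more than every wild-type animal, and wild-type animal 9 was the lowest of all. The means were 59.6 ± 15.3 CPM in homozygous and 15.4 ± 2.35 CPM in wild-type animals (SD, n = 4 each), a fold of 3.90 and a log2 fold change of 1.96 (SE 0.21, edgeR adjusted p = 8.11e-05). Leaving out 1 library gave 1.85 to 2.12. In CPM per kilobase Mrpl54 was the highest of the 76 in homozygous animals, at 98.6, whereas its 25.5 in wild-type animals was below the level of 4 other members.

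Mrpl54 lies at chr10:81264713-81266934 on the minus strand, and its exons of 604 bp overlap no exon of another gene. Its start is 26 bp from that of Apba3, which is transcribed the other way. Apba3, an adaptor protein of the X11 family, averaged 12.3 CPM in homozygous and 13.7 CPM in wild-type animals and passed the test in neither direction (log2 fold change -0.18, edgeR adjusted p = 0.537). The increase at Mrpl54 was thus measured beside a neighbouring gene with no call.

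Mrpl17, whose bacterial counterpart is a protein near the exit tunnel, was the only other large-subunit gene called higher. It had 69.9, 76.1, 96.6 and 74.3 CPM in homozygous and 56.8, 67.8, 54.9 and 65.4 CPM in wild-type animals. The genotypes were just apart, with a log2 fold change of 0.37 (SE 0.14, edgeR adjusted p = 0.047). The call was lost without any of 6 single libraries (wild-type 7, 9 or 10, homozygous 16, 17 or 18).

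Several large-subunit genes with well-known roles passed the test in neither direction. Mrpl11, at the base of the stalk, had 34.4, 33.1, 29.8 and 52.0 CPM in homozygous and 35.1, 31.5, 43.2 and 38.3 CPM in wild-type animals, and the ranges overlapped widely (log2 fold change 0.00, SE 0.18, edgeR adjusted p = 0.995). Mrpl50 averaged 10.4 ± 1.79 CPM in homozygous and 10.4 ± 1.49 CPM in wild-type animals (SD, n = 4 each). Mrpl3, a protein near the peptidyl transferase centre, averaged 20.9 ± 1.48 CPM in homozygous and 23.8 ± 3.2 CPM in wild-type animals, a log2 fold change of -0.18 that was -0.42 (edgeR adjusted p = 0.0403) after removal of the trend with CPM per kilobase. Mrpl44, a protein with a ribonuclease III fold, averaged 10.1 ± 3.59 CPM in homozygous and 9.39 ± 3.04 CPM in wild-type animals. The 24 uncalled Mrpl genes ran from -0.85 for Mrpl33 to 0.30 for Mrpl38 in log2 fold change.

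Among the small-subunit genes, Mrps21, Mrps18a, Mrps33 and Mrps7 fell by more than 2-fold. Mrps33, which occurs only in mitochondrial ribosomes (chr6:39801804-39810988, minus strand), had 14.0, 15.1, 20.8 and 20.8 CPM in homozygous and 34.5, 50.5, 33.5 and 37.7 CPM in wild-type animals. Each homozygous animal was well below each wild-type animal, and the log2 fold change was -1.14 (SE 0.19, edgeR adjusted p = 0.000914). Mrps18a (chr17:46110986-46128910, plus strand) had 9.71, 8.42, 15.9 and 7.04 CPM in homozygous and 23.1, 31.2, 22.0 and 27.6 CPM in wild-type animals. Animal 17 was the highest of the homozygous animals and still below every wild-type animal, with a log2 fold change of -1.33 (SE 0.23, edgeR adjusted p = 0.00132). Despite its name, the Mrps18a protein sits in the large subunit.

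Mrps7, a protein of the head of the small subunit (chr11:115603925-115608036, plus strand), had 16.3, 11.0, 17.6 and 15.9 CPM in homozygous and 36.0, 26.4, 26.6 and 41.4 CPM in wild-type animals. The genotypes did not overlap (log2 fold change -1.10, SE 0.19, edgeR adjusted p = 0.00148). Mrps21 (chr3:95862634-95871519, minus strand) was among the least abundant members, with 1.59, 2.61, 1.73 and 1.76 CPM in homozygous and 3.43, 5.42, 5.13 and 7.15 CPM in wild-type animals. All homozygous values were below all wild-type values, with a log2 fold change of -1.47 (SE 0.30, edgeR adjusted p = 0.00295). Mrps5, which lies near the entrance of the messenger RNA channel (chr2:127587222-127606829, plus strand), had 6.89, 10.5, 8.96 and 11.7 CPM in homozygous and 19.9, 13.9, 16.8 and 20.6 CPM in wild-type animals, again without overlap (log2 fold change -0.94, SE 0.20, edgeR adjusted p = 0.00417). The other small-subunit genes called lower were Mrps34, Mrps18c, Mrps15 and Mrps35, at -0.98 to -0.53. Mrps18c, which averaged 4.36 ± 1.26 CPM in homozygous and 8.33 ± 2.66 CPM in wild-type animals, lost its call without wild-type animal 10 or homozygous animal 15. Mrps35 lost it without any of 5 single libraries (wild-type 7, 9 or 10, homozygous 15 or 18).

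**Figure D2:**
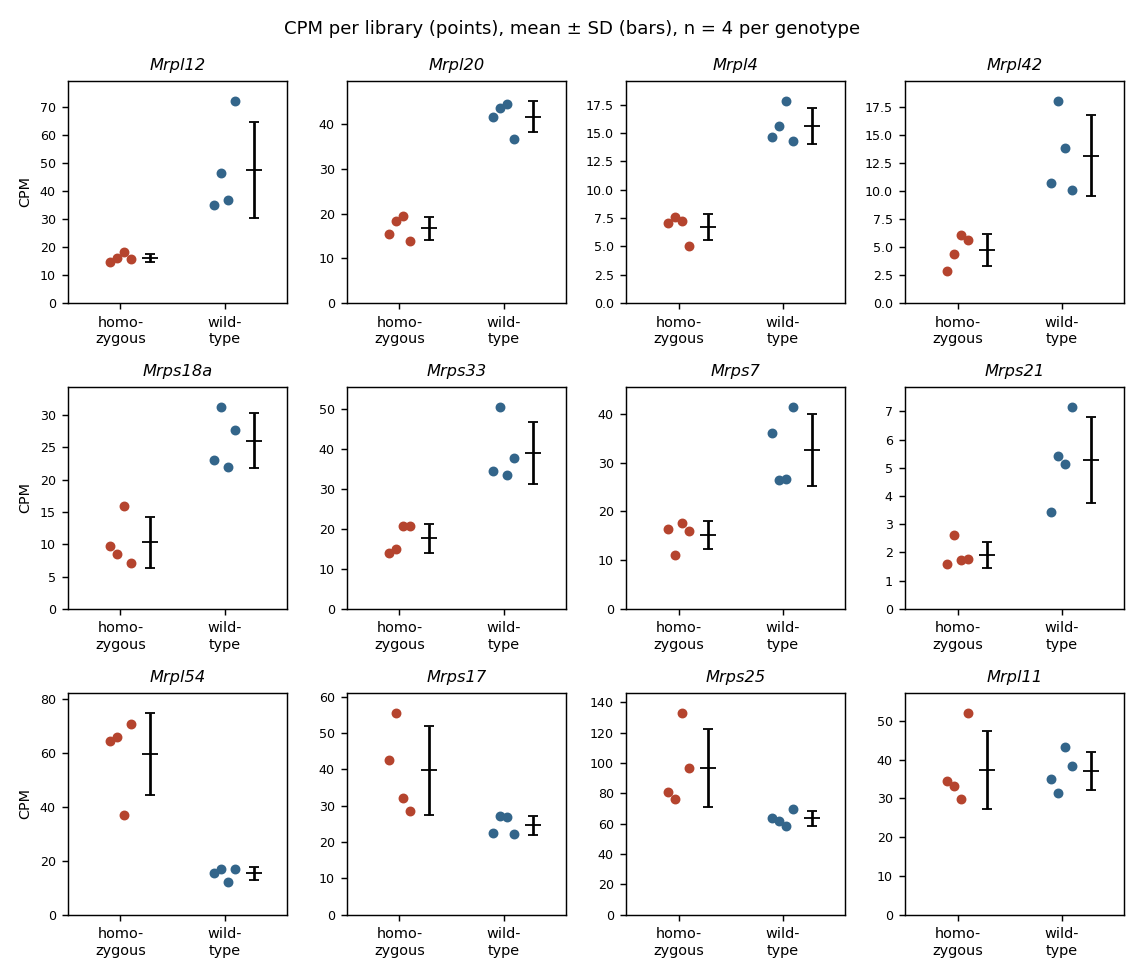
CPM in each library for 12 members, with homozygous animals on the left and wild-type animals on the right of each panel. Points are libraries and bars are mean ± SD (n = 4). The 8 upper panels show members lower in homozygous animals without overlap, Mrpl54, Mrps17 and Mrps25 were higher, and Mrpl11 overlapped.

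Mrps25 and Mrps17 were the small-subunit genes called higher. Mrps25 (chr6:92169525-92184033, minus strand), which has no bacterial counterpart, had 81.1, 76.4, 133 and 96.6 CPM in homozygous and 64.1, 61.7, 58.6 and 69.6 CPM in wild-type animals. Homozygous animal 17 was highest, and the others were nearer to the wild-type range (log2 fold change 0.61, SE 0.17, edgeR adjusted p = 0.0158). Of its exon bases, 58.2% overlap exons of Nr2c2, a nuclear receptor gene on the opposite strand, which averaged 201 CPM in homozygous and 246 CPM in wild-type animals. No source used here gives the strand setting of the counts, so reads of the pair cannot be told apart.

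Mrps17 (chr5:129715497-129722556, plus strand) has a bacterial counterpart that binds ribosomal RNA. It had 42.7, 55.5, 32.1 and 28.5 CPM in homozygous and 22.5, 27.1, 26.8 and 22.3 CPM in wild-type animals. The lowest homozygous animal was just above the highest wild-type animal, with a log2 fold change of 0.69 (SE 0.20, edgeR adjusted p = 0.0166). After removal of the trend with CPM per kilobase the value was 0.46 (adjusted p = 0.0869).

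The remaining 18 Mrps genes passed in neither direction, from -0.77 for Mrps36 to 0.16 for Mrps2, which was at -0.49 without homozygous animal 16. Mrps12, at the decoding centre, averaged 7.64 ± 2.35 CPM in homozygous and 11.5 ± 2.83 CPM in wild-type animals, with a log2 fold change of -0.59 (SE 0.26, edgeR adjusted p = 0.085). Mrps16, mutated in a human mitochondrial disease, averaged 7.79 ± 2.45 CPM in homozygous and 11.3 ± 2.65 CPM in wild-type animals (edgeR adjusted p = 0.0858). Mrps22, another such disease gene, averaged 9.71 ± 1.38 CPM in homozygous and 11.1 ± 1.7 CPM in wild-type animals (edgeR adjusted p = 0.405). None of these differences passed the test. Mrps16 passed it with either trend removed (-0.76 and -0.82 for abundance and CPM per kilobase, adjusted p = 0.0387 and 0.0321), under voom, or without wild-type 8 or homozygous 18, and Mrps12 with the abundance trend removed (-0.78, adjusted p = 0.035) or without wild-type 7 or homozygous 17. The smallest changes were those of Mrps18b, 9.29 ± 1.14 CPM in homozygous and 9.21 ± 2.24 CPM in wild-type animals, and of Mrps27, a pentatricopeptide repeat protein, 18.9 ± 3.32 CPM in homozygous and 19.6 ± 2.88 CPM in wild-type animals. Mrps24, high per kilobase, averaged 17.2 ± 2.7 CPM in homozygous and 19.3 ± 4.89 CPM in wild-type animals.

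The large and small subunits were then set side by side. Of the 47 Mrpl genes, 21 (44.7%) were lower and 2 higher in homozygous animals, with a median log2 fold change of -0.45. Of the 29 Mrps genes, 9 (31.0%) were lower and 2 (6.9%) higher, with a median of -0.44. Of all genes tested, 20.4% were lower and 20.7% higher, with a median of 0.05. Without homozygous animal 15, 13 Mrpl and 7 Mrps genes were called lower, when 17.1% of all genes tested were. The order of the shares depended on the fit. With the trend of fold change with CPM per kilobase removed, 34.0% of Mrpl and 44.8% of Mrps genes were lower, beside 16.7% of all genes. With a trend with abundance removed, 48.9% of Mrpl and 55.2% of Mrps genes were lower, beside 18.4% of all genes. Summed over genes, Mrpl transcripts came to 747, 782, 845 and 863 CPM in homozygous and 909, 948, 941 and 1058 CPM in wild-type animals. Summed Mrps transcripts came to 389, 447, 470.2 and 410.3 CPM in homozygous and 489, 519, 476 and 535 CPM in wild-type animals. Neither sum overlapped between the genotypes, though homozygous animal 17 was within a few CPM of wild-type animal 9 for the small subunit. The ratio of the Mrpl to the Mrps sum was 1.92, 1.75, 1.80 and 2.10 in homozygous and 1.86, 1.83, 1.98 and 1.98 in wild-type animals. These ratios overlapped, with means of 1.89 ± 0.156 in homozygous and 1.91 ± 0.0789 in wild-type animals (SD, n = 4 each).

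**Figure D3:**
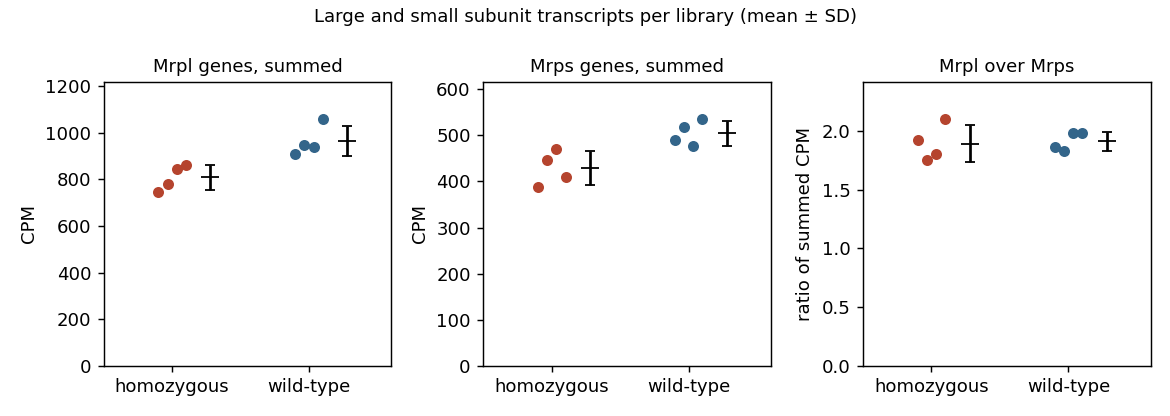
Summed CPM of the Mrpl genes, summed CPM of the Mrps genes, and their ratio, per library, with homozygous animals left of wild-type animals. Bars are mean ± SD (n = 4). Both sums were lower in every homozygous animal than in any wild-type animal, and the ratios overlapped.

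Without the 4 genes called higher, the Mrpl sum averaged 670.4 ± 52.7 CPM in homozygous and 887 ± 60.8 CPM in wild-type animals, and the Mrps sum averaged 292 ± 22.2 CPM in homozygous and 417 ± 24.1 CPM in wild-type animals (SD, n = 4 each). The ratio was then 2.30 ± 0.202 in homozygous and 2.13 ± 0.11 in wild-type animals. Leaving out members by their call widens the drop of both sums by construction. Sorting genes by where the protein sits in the ribosome moves Mrps18a and Mrps30 to the large subunit and leaves out Mrps36, which is a component of the oxoglutarate dehydrogenase complex. By that assignment 22 of 49 large-subunit genes were lower, with a median of -0.46, and 8 of 26 small-subunit genes, with a median of -0.37. Of all genes tested, 20.4% were lower. The ratio of the sums by that assignment, over all its genes, was 2.09 ± 0.147 in homozygous and 2.25 ± 0.0785 in wild-type animals. Mrps30 averaged 15.5 ± 2.68 CPM in homozygous and 21.8 ± 5.59 CPM in wild-type animals (edgeR adjusted p = 0.0799). Mrps36 averaged 3.56 ± 1.61 CPM in homozygous and 6.18 ± 1.29 CPM in wild-type animals, and neither gene passed the test. Both passed with either trend removed (adjusted p = 0.0356 and 0.0202 for Mrps30, 0.0166 and 0.0304 for Mrps36, for abundance and CPM per kilobase), Mrps30 also without wild-type 7, and Mrps36 also under voom or without homozygous 16.

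Proteins with and without a bacterial counterpart were also set side by side. The shares of all genes tested were 20.4% lower and 20.7% higher, with a median log2 fold change of 0.05. Of 47 genes with one, 17 were lower and 2 higher, with a median log2 fold change of -0.42. Of 27 that occur only in mitochondria, 12 were lower and 2 higher, with a median of -0.44. Mrpl55 and Mrps36 were left unclassed. Within the large subunit, the mitochondria-specific genes had 9 of 17 lower and a median of -0.62, and those with a counterpart had 11 of 29 lower and a median of -0.42. In the small subunit the order of the medians was the other way, at -0.35 over 10 mitochondria-specific genes and -0.46 over 18 with a counterpart.

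The members' exon lengths ran from 478 to 7605 bp, with a median of 1339.5 bp, and the calls were counted by length. Under 1 kb of exon, 12 of 22 members were lower and 1, Mrpl54, was higher, with a median log2 fold change of -0.73. From 1 to 2 kb, 14 of 30 were lower and 0 higher, with a median of -0.46. From 2 to 4 kb, 1 of 13 was lower and 0 higher, with a median of -0.25. In both ranges edgeR, DESeq2 and voom called 0 members higher, and 0 were higher at an unadjusted p under 0.05. Over 4 kb, 3 of 11 were lower and 3 higher, with a median of -0.10. Protein-coding genes within the members' CPM range had 29.4% lower under 1 kb (median -0.17), 20.5% at 1 to 2 kb (median 0.00), 17.3% at 2 to 4 kb (median 0.08) and 12.8% over 4 kb (median 0.10). Of these protein-coding genes 18.7%, 18.8%, 21.1% and 23.4% were called higher, from the shortest to the longest class, so that the 3 of 11 members higher over 4 kb are near the share of like genes.

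Across the 76 members, log2 fold change and log2 exon length had a Pearson r of 0.34 and a Spearman rho of 0.41, as a description of genes measured in the same 8 libraries. Without Mrpl54 these were 0.48 and 0.46 over 75 members. Longer members also had more reads, since log2 length and log2 mean CPM had an r of 0.55 and a rho of 0.51. Against CPM per kilobase the members' fold changes had an r of 0.02 and a rho of -0.13. Over 18360 protein-coding genes tested, r and rho of fold change and length were both -0.01. These genes are not limited to the members' CPM range, within which shorter genes were more often lower, as given above. The part of length in the members' shift was not tested.

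**Figure D4:**
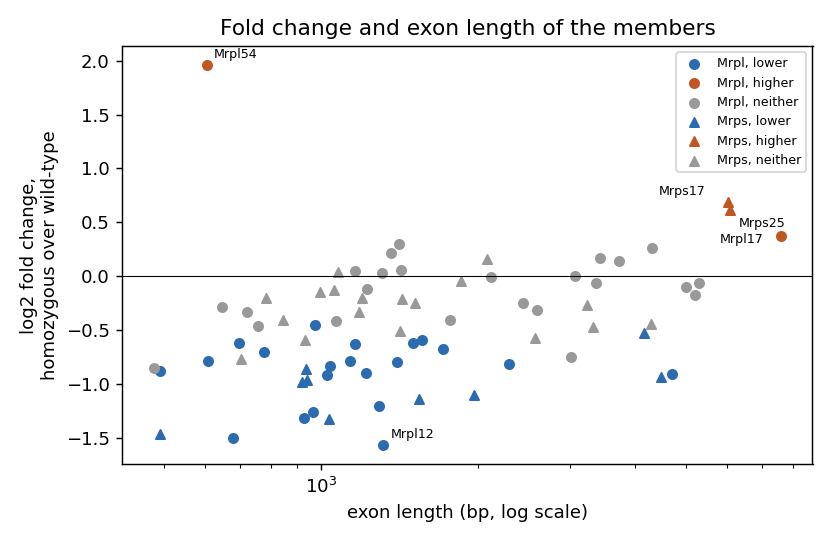
Log2 fold change, homozygous over wild-type, against exon length in bp (log scale) for the 76 members. Circles are Mrpl and triangles Mrps genes, coloured by call. Most members called lower are under 2 kb long, and 3 of the 4 members called higher, Mrpl17, Mrps17 and Mrps25, are over 4 kb long.

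Promoter motifs were counted in the 250 bases before the RefSeq start, for the 67 members found in the promoter table. The ETS core CCGGAA, on either strand, was in 27 of 67 members (40.3%), against 13.6% of 27025 genes in the table. Those 27025 were not limited to protein-coding genes, whereas all members are protein-coding. It was in 14 of 27 members called lower (51.9%) and in 13 of 40 not called lower (32.5%). The NRF-1 motif, GCGCA and GCGC with any base between them, was in 9 members (13.4%), against 4.23% of all genes, and in 4 of 27 called lower (14.8%) and 5 of 40 others (12.5%). The YY1 motif AAGATGGC was in 4 members (5.97%), against 1.83% of all genes, and in 1 of the members called lower. Among the printed windows, Mrpl17 holds both ETS and NRF-1 matches and was higher, and Mrps33, Mrps18a, Mrps21 and Mrpl12 hold 1 of these kinds and were lower. These windows were chosen by hand, and a link of motif and call was not tested.

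Many members start near the start of a gene transcribed the other way. A protein-coding gene starting head to head within 1000 bp was found for 32 members, and the neighbours of 31 were tested. The starts lie apart for 17 of the 32, and the genes overlap at their starts for 15. Whether a pair shares a promoter was not tested. Of these neighbours, 9 were lower, 5 higher and 17 neither, beside 20.4% lower and 20.7% higher of all genes tested. For the 14 members called lower with a tested neighbour, 3 neighbours were lower, 3 higher and 8 neither. For members called neither, 6 neighbours were lower, 2 higher and 8 neither. Mrpl46 and Mrps11 are neighbours of each other, so that pair enters these counts from both sides. Member and neighbour were both lower in 3 pairs, Mrpl48 with Rab6a (log2 fold change of the neighbour -0.61), Mrpl18 with Tcp1 (-0.90) and Mrpl36 with the complex I gene Ndufs6 (-1.16). All 3 pairs overlap in exons on opposite strands, by 403, 17 and 30 bp in that order, and their reads there cannot be told apart. After removal of the trend with CPM per kilobase Rab6a was at -0.01 (edgeR adjusted p = 0.952). Member and neighbour were called in opposite directions in 3 pairs, Mrpl41 with Pnpla7 (2.69), Mrpl10 with Lrrc46 (1.27) and Mrps5 with Zfp661 (0.54), whose starts lie apart. Zfp661 was at 0.30 (edgeR adjusted p = 0.124) after removal of that trend, as the member Mrpl41 also lost its call. Exons of 25 members overlap exons of another gene, and 10 of these were lower, beside 20.4% of all genes tested. Among members called lower, the largest overlaps were those of Mrpl53 and Mrpl24. All (100%) of the exon bases of Mrpl53 lie in exons of Gm42688 on the same strand. For Mrpl24, 38.2% lie in exons of Rrnad1 on the opposite strand. Reads there cannot be told apart. Of the 51 members with no such overlap, 20 were lower and 3 higher, beside 20.4% and 20.7% of all genes tested.

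The proteins that build and serve the mitochondrial ribosome were followed from lists of other genes, read against the 20.4% lower and 20.7% higher of all genes tested. Of 7 mitoribosomal proteins under other symbols, 2 (28.6%) were lower and 0 higher by edgeR (0 also by DESeq2, voom or an unadjusted p under 0.05), with a median log2 fold change of -0.16. The lower ones were Aurkaip1, 13.7 ± 0.676 CPM in homozygous and 26.2 ± 6.31 CPM in wild-type animals, and Gadd45gip1, 9.14 ± 1.33 CPM in homozygous and 16.6 ± 3.83 CPM in wild-type animals (edgeR adjusted p = 0.00218 and 0.00708). Of 22 assembly and rRNA modification factors, 6 (27.3%) were lower and 2 (9.09%) higher, with a median of -0.31. Fastkd2, an RNA-binding assembly factor, had 18.5, 22.4, 29.2 and 20.3 CPM in homozygous and 44.8, 45.1, 52.0 and 59.3 CPM in wild-type animals (log2 fold change -1.16, SE 0.16, edgeR adjusted p = 0.000408). It was lower in each homozygous animal than in every wild-type animal.

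Mterfd2 and Nsun4 encode proteins that act as a complex in assembly of the large subunit, and both were higher. Mterfd2 had 104, 92.3, 95.4 and 131 CPM in homozygous and 33.2, 33.9, 30.3 and 33.2 CPM in wild-type animals (log2 fold change 1.70, SE 0.14, edgeR adjusted p = 1.33e-05). Nsun4, the methyltransferase of that pair, had 23.8, 35.1, 28.9 and 21.7 CPM in homozygous and 14.8, 16.3, 16.8 and 16.4 CPM in wild-type animals (log2 fold change 0.76, SE 0.17, edgeR adjusted p = 0.00448). The wild-type animals lay close together for both genes. Mterfd1, of the same protein family as Mterfd2 and also a factor in large-subunit assembly, went the other way, with 16.6, 17.1, 15.3 and 25.8 CPM in homozygous and 67.3, 36.6, 86.3 and 62.3 CPM in wild-type animals (log2 fold change -1.77, SE 0.25, edgeR adjusted p = 0.000422).

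Of 13 genes of mitochondrial transcription and mRNA handling, 5 (38.5%) were lower and 1 (7.69%) higher, with a median of -0.29. The gene called higher was Polrmt, the mitochondrial RNA polymerase to which Mrpl12 binds. It had 192, 196, 68.5 and 104 CPM in homozygous and 20.4, 29.2, 23.3 and 21.7 CPM in wild-type animals. The homozygous animals differed widely from each other and were all above the wild-type animals, with a log2 fold change of 2.58 (SE 0.31, edgeR adjusted p = 0.000169) and 2.37 to 2.80 when 1 library was left out. Polrmt and Mrpl12 thus moved in opposite directions. Grsf1, which organises mitochondrial RNA granules, averaged 54.7 ± 5.19 CPM in homozygous and 75.1 ± 4.27 CPM in wild-type animals, and the nuclease Rexo2 13.4 ± 2.32 CPM in homozygous and 21.8 ± 4.17 CPM in wild-type animals (edgeR adjusted p = 0.00908 and 0.0105). The call of Grsf1 ended after removal of the trend with CPM per kilobase (adjusted p = 0.251).

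**Figure D5:**
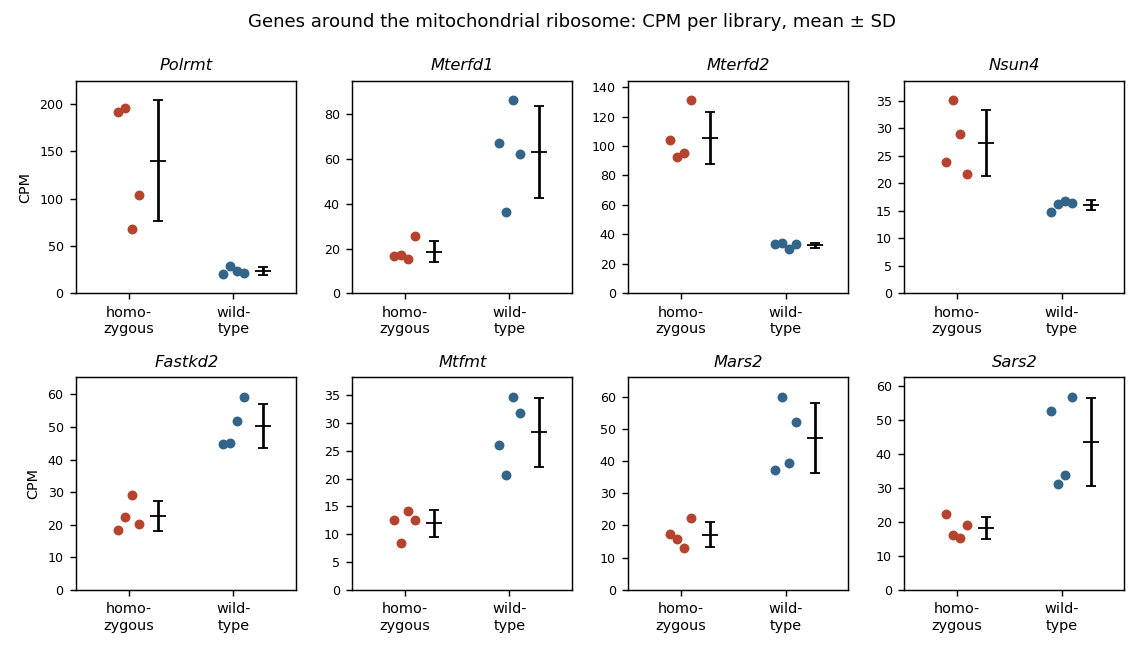
CPM in each library for 8 genes of mitochondrial transcription, ribosome assembly, initiation and tRNA charging, with homozygous animals left of wild-type animals. Points are libraries and bars are mean ± SD (n = 4). Polrmt, Mterfd2 and Nsun4 were higher in every homozygous animal than in any wild-type animal, and the other 5 were lower.

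Of 13 translation factors, 1 (7.69%) was lower and 1 higher, with a median of -0.17. Mtfmt, which formylates the initiator methionyl-tRNA, averaged 11.9 ± 2.46 CPM in homozygous and 28.3 ± 6.19 CPM in wild-type animals (log2 fold change -1.25, SE 0.20, edgeR adjusted p = 0.000859). Gfm2, which acts in ribosome recycling, averaged 81.2 ± 13.4 CPM in homozygous and 53.4 ± 0.947 CPM in wild-type animals (log2 fold change 0.60, SE 0.13, edgeR adjusted p = 0.00453). Of 19 mitochondrial aminoacyl-tRNA synthetases and amidotransferase subunits, 4 (21.1%) were lower, near the share of all genes, and 0 higher by edgeR (0 also by DESeq2, voom or an unadjusted p under 0.05), with a median of -0.12. The list holds Lars2, whose locus is known to collect ribosomal-RNA-like reads and whose level, 27022 CPM in homozygous and 46362 CPM in wild-type animals, is therefore uncertain. Mars2 averaged 17.1 ± 3.91 CPM in homozygous and 47.1 ± 10.8 CPM in wild-type animals, and Sars2 18.2 ± 3.19 CPM in homozygous and 43.5 ± 13.0 CPM in wild-type animals (edgeR adjusted p = 0.000374 and 0.00127). Sars2 starts 172 bp from the member Mrps12, head to head, which passed the test in neither direction.

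Of 10 regulators of mitochondrial biogenesis, 0 were lower by edgeR, DESeq2 or voom (2 at an unadjusted p under 0.05) and 1 (10.0%) was higher by edgeR, with a median of 0.22. With the trend with CPM per kilobase removed, 1 was lower and 2 higher. Nrf1, the transcription factor of the NRF-1 motif, averaged 83.4 ± 9.77 CPM in homozygous and 56.6 ± 4.71 CPM in wild-type animals (log2 fold change 0.56, SE 0.12, edgeR adjusted p = 0.00479). For the other motifs counted, Gabpa and Gabpb1, of GABP, were at -0.27 and 0.24 (edgeR adjusted p = 0.091 and 0.234). Yy1 was at -0.31 (edgeR adjusted p = 0.0636), and at -0.55 with the trend with CPM per kilobase removed (edgeR adjusted p = 0.00713). The part of these regulators in the members' changes was not tested.

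Among other multi-protein machines, the 82 tested cytosolic ribosomal protein genes had 64 (78.0%) lower and 3 (3.66%) higher, with a median of -1.03. The 35 tested genes of respiratory complex I had 23 (65.7%) lower and 0 higher by edgeR, DESeq2 or voom (1 higher at an unadjusted p under 0.05), with a median of -0.76. The mitochondrial ribosome, at -0.45, had the median closest to 0 of the 3. With the trend with CPM per kilobase removed, 49 cytosolic ribosomal protein genes were lower (median -0.65) and 14 complex I genes (median -0.45), level with the members' -0.45. The difference between these lists was not tested.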

How the data were processed

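Hippocampal RNA of 8 mice was depleted of ribosomal RNA and sequenced on a SOLiD instrument, per the labels' protocols. The authors deposited raw counts per gene symbol, which are whole numbers. The submitters' processing notes name build mm10. No source used here gives the aligner, the counter, the strand setting or the gene models. Columns were assigned to animals by their labels, and 0 columns belonged to no listed sample. No pair of libraries was within sampling noise (lowest chi-square per degree of freedom 5.08).

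All 24078 entries were filtered in R 4.3.3 (edgeR 4.0.16, filterByExpr), leaving 20478 and removing 3600. TMM factors and the two-sided quasi-likelihood test were used with no covariate, and p-values were adjusted by Benjamini-Hochberg over all genes tested, with a threshold of 0.05. The SE of a log2 fold change is its size over the root of the F statistic. The p-values measure only the spread between animals, and handling that differed by genotype cannot be told apart from genotype. The fit was also run on simulated counts that shared a single dispersion over all genes, taken from the wild-type libraries. That setting is simpler than these data, and no result above rests on it.

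Positions and exon lengths came from the basic set of GENCODE M21, matched by symbol, and promoters from RefSeq. The members and lists were chosen with earlier results of these data known. Genes were named by rule: Wfs1, per subunit up to 5 members lower and 3 higher without overlap by smallest p, the 2 of highest CPM per kilobase, the 2 of smallest change, members that depend on 1 library, members with a fixed role, and per list up to 2 lower and 2 higher by smallest p. Other members are named beside a count, a neighbouring gene or a role, chosen after their values were seen. Alternatives were other size factors, other filters, robust dispersion, DESeq2 1.42.0, voom of limma 3.58.1, a looser threshold, removal of loci with ribosomal-RNA-like reads, removal of loess trends of fold change with abundance or with CPM per kilobase (density), subunits by structure, and leaving out each library.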

Additional observations from a re-analysis of the deposited data

Results flagged for a closer look

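Each member's 4 animals of a genotype were searched for 1 animal far from the other 3 by Dixon's test, in 152 groups, and 5 were found. Chance gives about 1 such group in 20. Mrps2 had 59.5 CPM in homozygous animal 16, and 16.4 to 20.2 CPM in the other homozygous animals, and its log2 fold change of 0.16 was -0.49 without that animal. Mrps21 had 2.61 CPM in homozygous animal 16, above 1.59 to 1.76 CPM in the others of that genotype, and still below every wild-type animal. Mrps15 had 17.8 CPM in wild-type animal 7, above 13.9 to 14.1 CPM in the other wild-type animals. Mrps23 had 13.6 CPM in wild-type animal 8, below 19.1 to 19.9 CPM in the other wild-type animals. Mrpl18 had 21.7 CPM in wild-type animal 8, above 10.3 to 10.9 CPM in the other wild-type animals.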

How the results depend on the processing

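With 1 library left out, the members called lower numbered 20 to 34 (34 without homozygous animal 17) and those called higher 3 to 4, when 16.3% to 20.1% of all genes were lower and 15.6% to 19.0% higher. The Mrpl genes called lower numbered 13 to 23 and the Mrps genes 7 to 11. The lowest counts of members lower, 20, and of Mrpl genes lower, 13, came without homozygous animal 15. The medians ran from -0.59 to -0.37 for Mrpl and from -0.55 to -0.37 for Mrps genes, and the Mrpl minus Mrps gap from -0.12 to 0.11, around 0.00 with all libraries. Of the 34 members called, 11 lost the call without 1 library, among them Mrpl34 and Mrpl52 (6 of the 8 libraries each), and none moved in log2 fold change by over 1.5 times. Library totals without TMM moved the median of all genes to 0.25; 20 members were then lower (11.8% of all genes) and 5 higher (32.4% of all genes), 13 Mrpl genes were lower, and both subunits' medians were -0.24, so that relative to all genes the members stood at -0.50, as with TMM.

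With the abundance trend removed, 23 Mrpl and 16 Mrps genes were lower (18.4% of all genes), and the medians were -0.58 for Mrpl and -0.60 for Mrps genes. With the density trend removed, 29 members were lower (16 Mrpl and 13 Mrps genes; 16.7% of all genes), 24 of them among the original 30, and 2 were higher (14.4% of all genes), Mrpl54 and Mrps25; the Mrps median was -0.61 and the gap 0.19. With densities from all transcripts, chosen after seeing the data, 2 were higher, 19 Mrpl and 15 Mrps genes lower (18.9% of all genes), the Mrps median -0.61 and the gap 0.19. Under voom the Mrps median was -0.35 and the gap -0.13, a threshold of 0.1 gave 14 Mrps genes lower (24.7% of all genes), and subunits by structure gave a gap of -0.09. The cause of these moves was not tested.

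Over all settings 19 members changed sign under at least 1, none of them called, and their log2 fold changes in the fit reported lay within 0.21 of 0. Mrps2 moved furthest, to -0.49 without homozygous animal 16 and -0.28 under voom. Mrps11 ran from -0.55 to 0.06 and Mrpl13 from -0.35 to 0.06 with 1 library left out, and Mrpl21 was at -0.02 and Mrpl35 at -0.07 without the density trend. Mrpl11 was at -0.02 with other size factors, no filter or DESeq2, -0.01 with a 1 CPM filter, -0.06 under voom, and -0.20 to 0.09 with 1 library left out. Mrpl44 was at -0.08 under voom, -0.13 without the abundance trend, -0.12 and -0.10 without the density trends, and -0.16 to 0.23 with 1 library left out. Mrps18b was at -0.15, -0.04 and -0.13 in those 3 trend fits and at -0.09 to 0.14 with 1 library left out. With library totals, Mrpl3 was at 0.02, Mrpl50 at 0.19, Mrps22 at 0.01, Mrps24 at 0.05 and Mrps27 at 0.14; Mrps24 was at 0.07 without the density trend. Mrpl50 ran from -0.13 to 0.07 and Mrps27 from -0.14 to 0.06 with 1 library left out. Mrpl17 lost its call under other size factors (adjusted p = 0.0552), no filter (0.0647), the 1 CPM filter (0.0573), DESeq2 (0.0579) and the density trend (0.0815).

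No paired analysis was possible because the genotypes share no replicate numbers. No member entry was marked as a duplicate, so keeping such entries gave no other value. Members had 128 to 2689 counts over all libraries, which limits calls on the least abundant.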
